A study of Mus musculus with 4 samples.

Results

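The minor spliceosome snRNAs U11, U12, U4atac and U6atac were described in liver RNA of Fto knockout and wild-type mice on a C57/Bl6 background. They were taken as every row of the snRNA class that carries exactly one of these names, which gave 13 of 7569 transcripts in the immunoprecipitate table and 4 of 12883 genes in the input table. The immunoprecipitate was made by miCLIP, in which an antibody against N6-methylated adenosine is crosslinked to total RNA and the bound fragments are cloned and sequenced; the input is the matching RNA without that step. Both genotypes were taken as liver biopsies, and the immunoprecipitate and the input of each make 4 groups of 1 labelled sample, each with 3 replicates per its label. The labels give no age or sex and do not say how the Fto allele was made or in which cells it is lost. Nor do they tie a replicate to an animal, so every p below rests on a spread that may be technical.

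The minor spliceosome removes a small class of introns, the U12-type introns, that the major spliceosome does not recognise. U11 pairs with the 5′ splice site and U12 with the branch point, as U1 and U2 do in the major spliceosome. U6atac then takes the place of U11 at the 5′ splice site and forms the catalytic centre with U12, and U4atac holds U6atac paired until that step. U11, U12 and U4atac are made by RNA polymerase II, bind the ring of Sm proteins and carry a trimethylguanosine cap. U6atac is made by RNA polymerase III, has a different cap and binds LSm proteins. The antibody binds N6-methyladenosine and also N6,2′-O-dimethyladenosine (m6Am), the form that can stand beside the cap of polymerase II transcripts, and Fto encodes a demethylase that acts on both.

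The deposited values are the authors' comparison tables, with 1 mean per row over all libraries of the table, so levels in single libraries or single groups were not analysed here and the depth per library is unknown. Means are the authors' normalized signal, and log2 fold changes are given as knockout over wild type. Neither table states its direction: the input was read from Fto, which stood at −1.49 (SE 0.27, authors' adjusted p = 3.52e-04), and the immunoprecipitate was assumed to run the same way, so with the opposite reading every immunoprecipitate sign below turns. Markers of hepatocytes were present in the input at means from 294 to 84262 (6 of 6 genes), and markers of Kupffer cells at means from 32.7 to 240.5 (4 of 4 genes). Red cell and neutrophil markers were also present in the input (5 of 5 genes, means from 4.47 to 223). The red cell genes Alas2, Hba-a1 and Hbb-bs had log2 fold changes of −0.99, −0.48 and −0.32. The neutrophil genes S100a8 and S100a9 had 0.14 and 0.52. Alas2 and S100a9 had an unadjusted p of 4.92e-04 and 0.0499 in the DESeq2 table, and neither was called. In the immunoprecipitate 2 of the 5 were listed, Hba-a1 at −23.04 (SE 3.44) and Alas2 at −8.78 (SE 2.71). Their means were 11.97 and 11.45. Neither was called on the authors' adjusted p, but their unadjusted p were 0.0419 and 0.0340 in the DESeq2 table. Both were called, as lower, on fold over standard error adjusted over the table. Their part in the snRNA values was not tested. These cell types cannot be told apart as sources of the snRNAs in whole liver, nor can fewer cells of a type be told apart from less RNA per cell.

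In the immunoprecipitate, the most abundant copies of U11, U12 and U4atac had knockout-over-wild-type folds of 4.69, 10.3 and 10.9, while the abundant copy of U6atac had a fold of 0.768. Only U4atac passed the authors' threshold, an adjusted p under 0.05, though the term behind that p is not stated. That threshold was passed by 4.69% of the 2347 features with an adjusted p, and in the higher direction by 0.895%. Of the 13 minor snRNA copies 7 had an adjusted p, and 1 of those was called.

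**Figure D1:**
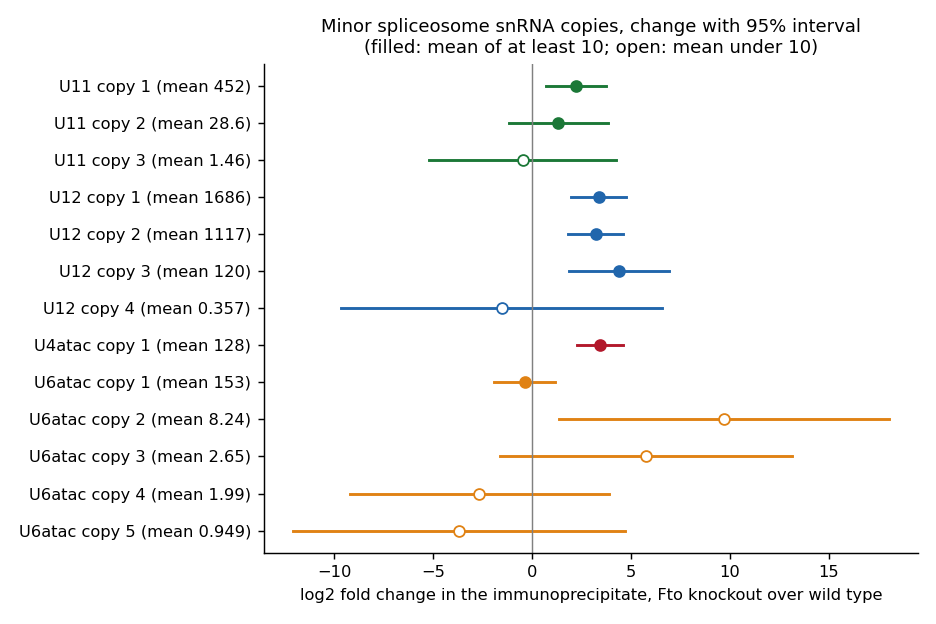
Log2 fold change in the immunoprecipitate (x axis, knockout over wild type) for each of the 13 minor snRNA copies; points are the authors' estimates, bars the 95% intervals from the printed standard errors, and filled points mark a mean of at least 10. U12 copies 1 to 3, U11 copy 1, U4atac and U6atac copy 2 (mean 8.24) lie to the right of 0 with their intervals. U6atac copy 1 lies at −0.38, and copies with open points have the widest intervals.

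U11, the RNA of 5′ splice site recognition, had 3 copies at means of 452, 28.6 and 1.46. The first of these (ENSMUST00000104135) held 93.8% of the summed mean of the family. Its log2 fold change was 2.23 in the authors' deposited table, with a 95% interval from 0.72 to 3.74, and it did not pass the threshold (authors' p = 0.0472, adjusted p = 0.220 from the DESeq2 table). The copy at a mean of 28.6 had 1.33 (interval −1.17 to 3.82) and the copy at 1.46 had −0.48 (interval −5.20 to 4.25). The copies therefore did not share a sign, but only the most abundant of them had an interval that left out 0.

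U12, the branch point RNA, held 79.0% of the summed mean of the minor snRNAs in the immunoprecipitate and 52.5% in the input, where no U4atac value enters. These means pool both genotypes, so the shares may differ between them. Its 4 copies had means of 1686, 1117, 120 and 0.357. The most abundant (ENSMUST00000083242) had a log2 fold change of 3.36 (interval 1.96 to 4.76), and the next had 3.21 (interval 1.83 to 4.58) in the authors' deposited table. The copy at a mean of 120 had the highest value, 4.38, with a wider interval (1.86 to 6.91). These 3 differed by less than their errors: copy 3 exceeded copy 1 by 1.02 (interval −1.87 to 3.91), and copy 1 exceeded copy 2 by 0.16 (interval −1.80 to 2.12). None passed the threshold, with adjusted p of 0.128, 0.315 and 0.164 in the authors' DESeq2 table. The rare copy stood at −1.55 with an interval from −9.64 to 6.54. How the authors' counting shared reads among near-identical copies is not known, so each copy's value is uncertain and the copies are not separate measurements of the family.

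U4atac, the partner that keeps U6atac inactive, had 1 copy (ENSMUST00000116892), at a mean of 128. Its log2 fold change was 3.45 (SE 0.59, interval 2.29 to 4.61) in the authors' deposited table, and it was the called member, with an adjusted p of 0.0274 (DESeq2). A standard error smaller than this was printed for 0.304% of the features. The call did not hold when the authors' p was adjusted over all 6846 features that have a p (adjusted p = 0.0629); under that adjustment 34 features were called, 0.497% of those tested.

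U6atac, the catalytic RNA, had 5 copies, of which 1 (ENSMUST00000116888, mean 153) held 91.7% of the summed mean. This copy had a log2 fold change of −0.38, with an interval from −1.92 to 1.16, and an adjusted p of 1 in the authors' DESeq2 table. The median of the 1682 features with a mean of at least 10 was −0.82, and relative to it U6atac stood at 0.44, U11 at 3.05, U12 at 4.18 and U4atac at 4.27, so of these only U6atac has a sign that depends on the scaling. The other copies had means from 0.949 to 8.24 and spread to both sides. Copies 2 and 3, at means of 8.24 and 2.65, stood at 9.70 and 5.76 with standard errors of 4.25 and 3.77. The interval of copy 2, from 1.37 to 18.0, left out 0, and that of copy 3 did not. The deposited table lists no p for either. Copies 4 and 5, at means of 1.99 and 0.949, stood at −2.67 and −3.68 with standard errors of 3.33 and 4.28. At such means a fitted fold rests on very few reads, so their sizes are not read further.

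The abundant copies were then placed among the other features of similar abundance. Of 217 immunoprecipitate features with a mean of at least 100, 58 were snRNAs and 159 were not, and the median log2 fold change over the 159 was −0.69. Over the 58 snRNAs, which include the abundant minor copies, the median was 3.28, and over all 217 it was −0.38. U12 copies 1 to 3, U4atac and U11 copy 1 stood at 2.23 to 4.38 and U6atac copy 1 at −0.38. The most abundant copies of U1, U5, U4, U2 and U6 stood at 4.50, 3.53, 2.54, 1.01 and 0.03. Values of the size seen for U11, U12 and U4atac were therefore not particular to the minor snRNAs. The minimum was set on a mean over both genotypes, so a copy with a large fold can pass through its higher group alone, and no rank is read from this set.

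**Figure D2:**
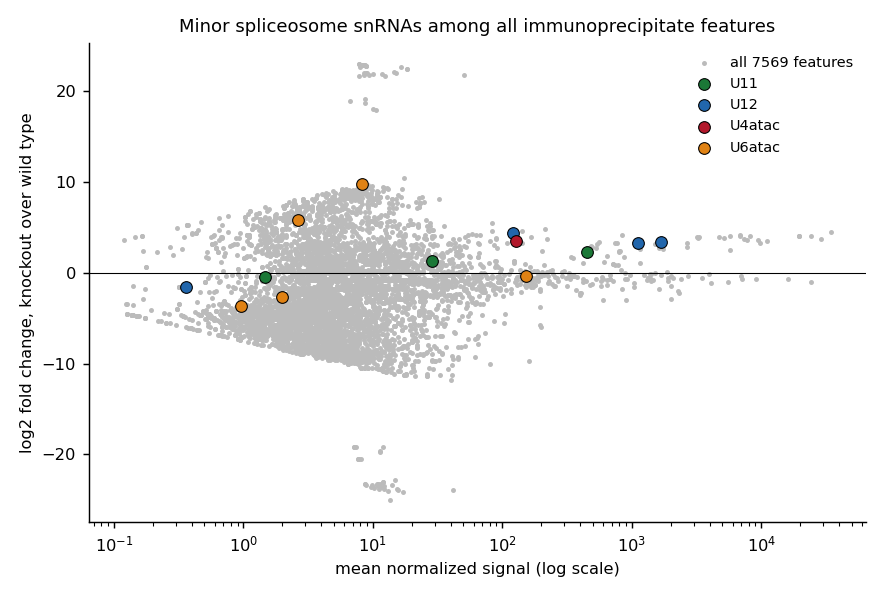
Log2 fold change (y axis, knockout over wild type) against mean normalized signal (x axis, log scale) for all 7569 immunoprecipitate features in grey, with the 13 minor snRNA copies in colour. The abundant U11, U12 and U4atac copies lie on the upper branch of abundant features, between 2.23 and 4.38, while the abundant U6atac copy lies on the lower branch at −0.38.

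The Sm-class families were compared with U6atac through the most abundant copy of each. All 3 differences were above 0. U4atac exceeded U6atac by 3.83 on the log2 scale (SE 0.98, interval 1.90 to 5.76), U12 by 3.74 (SE 1.06, interval 1.66 to 5.83) and U11 by 2.61 (SE 1.10, interval 0.45 to 4.77). Adjusted over the 3 pairs, the normal test of these differences on the DESeq2 standard errors gave p of 3.01e-04 for U4atac, 6.29e-04 for U12 and 0.0176 for U11. These differences do not depend on how the table was scaled, since a shift of all fold changes cancels. They do depend on the copy: against U6atac copy 2, with its mean of 8.24, the differences turned, as that copy stands at 9.70 ± 4.25 (SE).

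Among themselves the Sm-class families could not be ordered. U12 exceeded U11 by 1.13 (interval −0.92 to 3.19), U4atac exceeded U11 by 1.22 (interval −0.69 to 3.12), and U4atac and U12 differed by 0.08 (interval −1.74 to 1.90). The intervals allow differences of several-fold in either direction for the last pair, so the values are not shown to be alike.

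The printed errors and the authors' p do not measure the same thing: the p may belong to another contrast or term than the printed fold change, so a fold and its p cannot be read as a single knockout-against-wild-type test. For U4atac the fold change over its standard error, squared, was 33.9 while the authors' statistic was 12.4. For U12 copy 1 the values were 22.2 and 5.96, for U12 copy 2 they were 20.9 and 2.84, and for U11 copy 1 they were 8.39 and 3.94. The order was reversed for U11 copy 2, at 1.09 and 1.27, and for U6atac copy 3, at 2.34 and 2.73, so the gap was not constant. Called on fold over standard error, adjusted over the table, 5 of the 13 copies passed, all higher (U11 copy 1, U12 copies 1 to 3 and U4atac), against 2.81% of all features in that direction. On the authors' p without adjustment, 4 of the 11 copies with a p were under 0.05, against 10.4% of features. Copies of a family are not separate measurements, so neither count is a number of independent members. The 58 snRNAs with a mean of at least 100 had a median of 3.28, so neither count is read as particular to the minor snRNAs.

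Each minor snRNA was also set beside its counterpart in the major spliceosome, again by the most abundant copy. U11 lay below U1, with 2.23 against 4.50, a difference of −2.27 (interval −4.06 to −0.48). U12 lay above U2, with 3.36 against 1.01, a difference of 2.36 (interval 0.30 to 4.42). Both had a p of 0.0497 adjusted over the 4 pairs (normal test on DESeq2 standard errors), and both lost the call when the next most abundant copies were used, at −2.42 (adjusted p = 0.159) and 1.53 (adjusted p = 0.181). U4atac and U4 differed by 0.90 (interval −0.74 to 2.55), with 3.45 against 2.54. U6atac and U6, the RNAs of polymerase III, differed by −0.41 (interval −2.95 to 2.14), with −0.38 against 0.03. The major families have many copies. Those with a mean of at least 10 ran from 1.94 to 6.52 for U1 (52 copies), which takes in U11. They ran from 0.02 to 2.66 for U2 (16 copies) and from 0.84 to 2.66 for U4 (9 copies), below U12 and U4atac. The 24 U6 copies ran from −10.0 to 5.29.

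**Figure D3:**
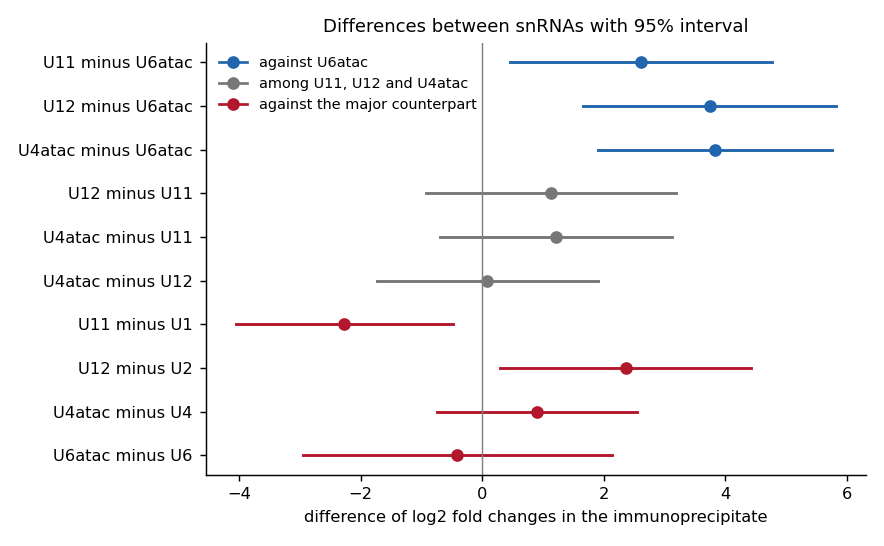
Differences of log2 fold changes in the immunoprecipitate (x axis) between the most abundant copies of the named snRNAs; points are differences, bars their 95% intervals. The 3 differences from U6atac lie between 2.61 and 3.83 with intervals above 0, those among U11, U12 and U4atac have intervals that include 0, and U11 lies below U1 while U12 lies above U2.

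The input gives the level of the same RNAs without the antibody. None of the 4 genes passed the threshold there, which 0.0389% of 12865 genes did, and 0 had an unadjusted p under 0.05, against 2.21% of genes (DESeq2, the authors' deposited table). Rnu11, the U11 gene, had a log2 fold change of −0.19 (interval −0.74 to 0.35) at a mean of 40.6. Rnu12, the main U12 gene, had −0.49 (interval −1.06 to 0.07) at a mean of 67.8. A further gene with the name U12, Gm25703, had 0.49 (interval −0.08 to 1.05) at a mean of 6.54, on the other side of 0 from Rnu12. The U6atac gene Gm25541 had 0.32 (interval −0.26 to 0.90) at a mean of 26.8. A U4atac row in the input was not analysed here. Per 100 bases of the RefSeq gene, the mean was 45.2 for Rnu12, 37.6 for Rnu11, 21.2 for Gm25541 and 4.33 for Gm25703, with no error available for these levels.

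The genes lie at separate places in the mouse genome (GRCm38.p6, the patch release of mm10, RefSeq). Rnu11 spans 108 bases on chromosome 4, from 132270079 to 132270186, and Rnu12 spans 150 bases on chromosome 15, from 83149645 to 83149794. Gm25541 spans 126 bases on chromosome 2, from 27539805 to 27539930, and Gm25703 spans 151 bases on the same chromosome, from 129315329 to 129315479. No other RefSeq gene overlaps any of the 4. Rnu12 has the closest neighbour, Poldip3, a gene for a polymerase-interacting protein, which ends 266 bases away.

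The change in the immunoprecipitate was then set against the change in the input for each family found in both tables. U12 had 3.36 in the immunoprecipitate and −0.49 in the input, a difference of 3.86 (interval 2.35 to 5.37). U11 had 2.23 and −0.19, a difference of 2.42 (interval 0.82 to 4.03). U6atac had −0.38 and 0.32, a difference of −0.70 (interval −2.35 to 0.94). Adjusted over the 3 families, the normal test on DESeq2 standard errors gave p of 1.59e-06 for U12, 0.00461 for U11 and 0.403 for U6atac. Printed standard errors reached 4.41 in the immunoprecipitate and 0.302 in the input, where fold changes look shrunken, so the tables are not on the same scale. Within the input, U11 minus U6atac was −0.51 (interval −1.31 to 0.28) and U12 minus U6atac was −0.82 (interval −1.62 to −0.0065), both of the opposite sign to the immunoprecipitate. Neither passed the normal test on DESeq2 standard errors (adjusted p = 0.206 and adjusted p = 0.0964).

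**Figure D4:**
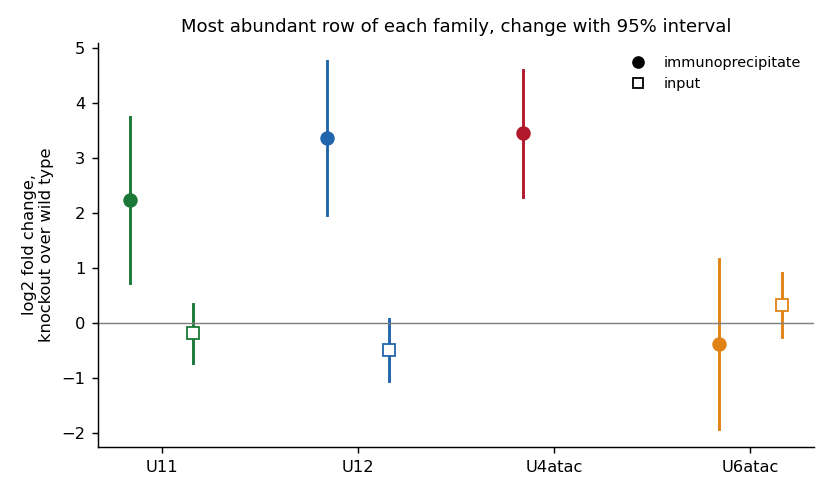
Log2 fold change (y axis, knockout over wild type) of the most abundant row of each family in the immunoprecipitate (filled circles) and in the input (open squares), with 95% intervals. U11 and U12 stand at 2.23 and 3.36 in the immunoprecipitate and at −0.19 and −0.49 in the input. The 95% intervals of U6atac include 0 in both, and U4atac has a value in the immunoprecipitate only.

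Genes for proteins that work with these RNAs gave no call in the input, where 0.0389% of all genes were called and 2.21% had an unadjusted p under 0.05, so counts of 0 among so few genes do not set them apart. Among 15 measured genes for proteins of the minor spliceosome, 0 were called in the input and 0 had an unadjusted p under 0.05 (DESeq2, authors' table), and the median log2 fold change was −0.09, against 0.02 over all genes. Zcrb1, a protein of the U11/U12 particle, had the lowest p of them, at −0.45 (SE 0.29), and Zrsr2, which recognises the 3′ splice site of U12-type introns, stood at −0.27 (SE 0.29). The SF3b proteins, which the U2 and the U11/U12 particles share, had 0 of 7 called and a median of 0.08, with Sf3b3 at 0.44 (SE 0.25) and Sf3b6, which contacts the branch point, at −0.44 (SE 0.27). Partner proteins of U4atac and U6atac, among them the LSm ring and proteins of U5, had 0 of 18 called, with a median of 0.15. Of the 18, 16 lay above 0, as did 53.5% of all input genes, and no test was made of that count. Of these, the U5 GTPase gene Eftud2 stood at 0.46 (SE 0.27) and Lsm4, a subunit of the ring on U6atac, at 0.33 (SE 0.29).

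Of 21 genes known to hold a U12-type intron, 0 were called in the input and 0 had an unadjusted p under 0.05 (DESeq2, authors' table), counts that those shares over all genes (0.0389% and 2.21%) do not set apart. Their median was 0.05. Hps1, a gene of lysosome-related organelles, stood at −0.42 (SE 0.29), the kinase gene Braf at −0.34 (SE 0.25), and the trafficking gene Trappc2 at 0.31 (SE 0.25). Retained introns were not measured by these tables. In the immunoprecipitate the same 4 lists had 31 transcripts, of which only 8 had an adjusted p and could be called, and 0 were, against 4.69% of features. By fold over standard error 4 were called, all lower, where 8.01% of all features were: Mepce, Araf at −8.18 (SE 2.89) and 2 transcripts of Snrnp25, a U11/U12 protein gene, both at −9.10, at means from 3.36 to 13.5. The 7 transcripts of minor spliceosome protein genes came from 5 genes and had a median of −8.33, against −1.59 over all features. Of the 7, 0 lay above 0, against 29.5% of all features. Only 3 of the 7 had a p and 2 an adjusted p, and neither Snrnp25 transcript had a p. The 2 Snrnp25 transcripts had near-equal means (13.5 and 13.3) and the same fold, and whether they hold the same reads is not known. They are not taken as separate measurements. The means of the 7 ran from 0.822 to 13.5, where a fold rests on few reads, so this median and sign count are not read further. The lowest of the authors' p in the 4 lists was that of Mepce, the enzyme that caps 7SK RNA, at −9.34 (SE 2.08, unadjusted p = 0.0235 in the DESeq2 table, with no adjusted p listed) at a mean of 5.92, and it was the only one under 0.05 without adjustment.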

How the data were processed

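The authors deposited comparison tables: a mean normalized signal, a log2 fold change with its standard error, a test statistic (score) and p-values with adjusted p-values, per the file headers. Per the submitters' processing notes, STAR, bedtools 2.25.0, DESeq2 and mm10 were used, in roles not stated (counting, model and filters: not given in the sources used here). Total RNA was TRIzol-extracted and DNase-treated, per the labels' protocols. Members and lists were chosen with earlier results of these data known. Named were all members, the most abundant copies of major snRNAs, Fto, and up to 4 genes per list and table with the lowest p; 1 of these genes is not reported here. Differences used both printed standard errors as independent, with 95% normal intervals and Benjamini-Hochberg adjustment over the stated pairs (Python 3.11.15, scipy 1.17.1); they share libraries, so errors may be correlated. Calls, adjustment and intervals were tested on simulated data with independent normal errors of the printed size. That checks the computation only and cannot show whether the printed errors are right or independent. All 4 input genes matched a current symbol; transcripts could not be paired with input genes except by family name. The RefSeq promoter sequences (GRCm38.p6) matched 0 of the 4: Rnu11, Rnu12, Gm25703 and Gm25541. Alternatives covered scaling, adjustment, copy choice and filters.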

Additional observations from a re-analysis of the deposited data

How the results depend on the processing

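No paired analysis was possible because the tables hold no values of single replicates, and for the same reason no replicate was left out. The number of called copies, 1 by the authors, was 0 with the p adjusted over all features and 5 by fold over standard error. Centring on features with a mean of at least 10 (median −0.82) gave 3.05 for U11, 4.18 for U12, 4.27 for U4atac and, with a change of sign, 0.44 for U6atac; it also turned U11 copy 3 to 0.34. With centring on features with a mean of at least 100, chosen after seeing the data, U6atac was 0.0035, and on those that are not snRNAs it was 0.31, with U4atac at 4.14. The median over all U11 copies was 1.33. With the copy of second highest mean, U6atac was 9.70, and the differences from it became −8.37 (U11), −6.49 (U12) and −6.25 (U4atac), each with an adjusted p of 0.145. The same differences in the input were −0.51 for U11 and −0.82 for U12. Second copies gave −2.42 for U11 minus U1, 1.53 for U12 minus U2 and 9.76 for U6atac minus U6, which was 0.41 by medians over copies with a mean of at least 10. With the immunoprecipitate direction turned, its difference from the input was −2.04 for U11, −2.87 for U12 and 0.060 for U6atac; centring both tables gave 0.12 for U6atac. The cause was not tested for any of these. By the authors' adjusted p, counts of called list genes stayed at 0 with a minimum mean of 10 and with 1 feature per gene. By fold over standard error 4 list transcripts were called in the immunoprecipitate, 2 of them of Snrnp25. The 6 copies with a mean under 10 had standard errors of 2.41 or more; depth per library is unknown.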

Other observations

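The genes on either side of the minor snRNA genes were looked at in the input, chosen after the members' values were seen. The neighbours Gm28874, Gm18333 and Gm13421 were not analysed here. Poldip3, beside Rnu12, had a log2 fold change of 0.01 (SE 0.25) at a mean of 89.1, and Cyb5r3, the cytochrome b5 reductase gene on the other side, had −0.18 (SE 0.24) at a mean of 591. Taf12, a gene for a subunit of a general transcription factor beside Rnu11, had 0.12 (SE 0.30), and Wdr5, a gene for a chromatin adaptor beside the U6atac gene Gm25541, had −0.00 (SE 0.27). None of these passed the threshold in the authors' deposited table. In the immunoprecipitate, 1 transcript of Cyb5r3 stood at 4.44 (SE 1.71) at a mean of 5.01, with an unadjusted p of 0.0662 in the DESeq2 table.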
